A study of Mus musculus with 15 samples.

Results

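The insulin-like growth factor (IGF) genes described here are 10 genes: the ligands Igf1 and Igf2, the receptors Igf1r and Igf2r, and the binding proteins Igfbp2, Igfbp3, Igfbp4, Igfbp5, Igfbp6 and Igfbp7. They were picked by gene symbol, with no threshold on any value, and all 10 were found among the 56953 genes of each of 3 deposited tables. The list was drawn up with earlier results of both comparisons in view, so the fold changes and p-values below describe these genes and are no independent support for them.

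RNA was sequenced in bulk from 15 libraries of wild-type mice of strain 129, labelled as males of 10 weeks. Muscle stem cells (MuSCs), also called satellite cells, rebuild injured fibres and gave 3 libraries after autologous MuSC transplantation (mice 5, 6 and 11) and 3 libraries before it from mice of the same numbers. The cells after transplantation came from muscle that had not received cells. Quadriceps femoris muscle gave 6 libraries from transplanted mice (4, 5, 6, 11, 14 and 94) and 3 from sham-operated mice (3, 12 and 192). The treatment entry of the shams names transplantation, and their titles name them as shams. How the MuSCs were purified, whether they were cultured and how long after surgery samples were taken was not stated in the labels.

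MuSC libraries held 17.09 to 21.26 M estimated counts (M for mega) and muscle libraries 18.07 to 22.98 M. Levels are given as the authors' TPM, which is scaled for gene length and library total, or as CPM, counts scaled to a common library total, which suits comparisons of 1 gene between libraries. A name such as after 5 means the library of mouse 5 from the group after transplantation. The 9 MuSC markers listed (Pax7, Myf5, Cdh15 and others) summed to 929 to 1509 TPM in MuSCs after transplantation and 1096 to 1549 TPM before it, against 55.5 to 72.3 TPM in transplanted and 65.6 to 82.4 TPM in sham muscle. Within these sums Myod1 had 532 to 958 TPM after and 538 to 918 TPM before, and Pax7 had 11.8 to 17.9 and 14.1 to 21.6 TPM. Calcr, a receptor of quiescent MuSCs, was at 0 in all 3 libraries after transplantation and at 0.03 TPM in before 5 and 0 in the other libraries before it. It reached 0.1 TPM in transplanted and 0.17 TPM in sham muscle. Chodl, also listed, reached 0.09 TPM after and 0.25 TPM before. In muscle Chodl had 0.99 to 2.32 TPM in transplanted and 2 to 3.02 TPM in sham libraries. The other listed genes were higher in MuSCs than in muscle. The 10 mature myofibre markers summed to 910 to 7384 TPM in MuSCs after transplantation and 3960 to 12371 TPM before it. Acta1, Mylpf and Tnnt3, which differentiating myoblasts also express, made up most of these sums. Myh4, an adult fast fibre myosin, was at 0.05 to 1.63 TPM after and 0.6 to 2.32 TPM before, and Pvalb was at 0 in 5 of the 6 libraries. Summed Y-linked transcripts stayed under 0.5 TPM in all 15 libraries and Xist exceeded 1 TPM in 14, which goes against the label of male. The MuSC libraries fall into 2 sets by how their descriptions are written, A (after 5, before 5 and before 11) and B (after 6, after 11 and before 6), and the CPM of the sets did not overlap in 7681 of 13512 genes tested (56.8%).

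IGF1 and IGF2 are secreted growth factors that bind the receptor tyrosine kinase IGF1R, which signals through PI3K, AKT and mTOR to protein synthesis and cell survival. IGF2R, also the mannose 6-phosphate receptor, has no kinase domain and carries IGF2 to the lysosome. The binding proteins hold the ligands outside the cell, and proteases such as PAPP-A release them. IGFBP7 binds the ligands only weakly. In skeletal muscle IGF1 is known as a growth signal for fibres, and Igf2 as a gene that myoblasts switch on when they differentiate.

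The promoters of 3 binding protein genes are shown because the levels below turn on them. Igfbp2 and Igfbp5 are neighbours on chromosome 1, on opposite strands with their 3′ ends facing each other. They lie 5457 bases apart with 0 genes between them in the deposited annotation. Igfbp2 was far higher in MuSCs than in muscle. Igfbp5 had the higher means in muscle, but its libraries overlapped, with up to 79.4 TPM in MuSCs after transplantation and from 56.9 TPM in transplanted muscle. Igfbp4, on chromosome 11, had the largest difference between MuSC groups among the 10 genes. The sequences are from RefSeq (GRCm38.p6), the 250 bases before the start, at chr1:72824230-72824479 on the plus strand for Igfbp2 (the first of 2 starts), chr1:72874866-72875115 on the minus strand for Igfbp5, and chr11:99040994-99041243 on the plus strand for Igfbp4. Capitals mark a match on either strand to the motif GGGCGG, known as the GC box, to the motif TATAAA, known as the TATA box, or to the motif CAGCTG, known as the E box, and no match overlapped one of another kind.
Igfbp2: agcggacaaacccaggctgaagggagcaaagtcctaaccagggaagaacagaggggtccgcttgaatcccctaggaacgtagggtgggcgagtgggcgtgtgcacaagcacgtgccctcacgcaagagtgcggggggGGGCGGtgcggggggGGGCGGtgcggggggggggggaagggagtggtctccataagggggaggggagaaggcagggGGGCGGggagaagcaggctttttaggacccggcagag
Igfbp5: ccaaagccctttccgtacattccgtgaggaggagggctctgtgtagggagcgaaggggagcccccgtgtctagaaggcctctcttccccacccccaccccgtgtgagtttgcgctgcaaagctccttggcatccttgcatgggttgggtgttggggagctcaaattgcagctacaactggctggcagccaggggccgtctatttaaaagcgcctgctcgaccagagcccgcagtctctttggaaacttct
Igfbp4: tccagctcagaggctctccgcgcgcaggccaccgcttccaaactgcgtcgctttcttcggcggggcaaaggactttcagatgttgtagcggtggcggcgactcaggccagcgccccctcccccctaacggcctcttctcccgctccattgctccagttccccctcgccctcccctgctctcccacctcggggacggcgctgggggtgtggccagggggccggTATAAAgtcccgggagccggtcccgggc
Over the whole window of 300 bases, which runs 50 bases past the start, Igfbp2 had 3 GC boxes, Igfbp4 had 1 TATA box and Igfbp5 had no match to any of the motifs. All 10 genes were matched to 14 such windows. A GC box was found for 5 of the 10 genes, a TATA box for 2 (Igfbp4 and Igfbp6) and the E box for 1 (Igf1). Of all 32851 RefSeq windows, 35.7% held the GC box, 13.6% the TATA box and 16.3% the E box. These shares are per window, while a gene with several starts was counted if any of its windows matched. A match is a description of letters and shows no site in use.

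The levels of the 10 genes, compared on the length-scaled TPM unit, were ordered differently in MuSCs and in muscle. After transplantation, Igfbp2 averaged 997 ± 354 TPM (SD, n = 3) and Igf2 485 ± 349 TPM, and before it Igf2 averaged 764 ± 278 TPM and Igfbp2 759 ± 102 TPM (n = 3). These were the highest of the family in MuSCs in both groups, and within each group the libraries of the pair overlapped. In muscle Igfbp5 was the highest, at 128 ± 42.3 TPM in transplanted (n = 6) and 189 ± 40.6 TPM in sham muscle (n = 3), and its libraries overlapped with no other member's. Igfbp7 came next in muscle, at 39 ± 5.56 TPM in transplanted and 50.9 ± 20.6 TPM in sham muscle.

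At the lower end, Igf1 had the lowest mean in MuSCs, at 0.237 ± 0.138 TPM after and 0.383 ± 0.215 TPM before transplantation. Before it Igfbp4, at 0.427 ± 0.208 TPM, overlapped with Igf1. Igfbp2 was last in muscle, at 0.18 ± 0.0906 TPM in transplanted and 0.103 ± 0.105 TPM in sham muscle. The gaps between neighbours that did not overlap among libraries of MuSCs after transplantation were those between Igf2r and Igf1r and between Igfbp6 and Igf1. In MuSCs before it there were 3 such gaps, below Igfbp2, below Igfbp5 and below Igfbp6. In sham muscle the neighbours overlapped except below Igfbp5 and above Igfbp2, and in transplanted muscle also except between Igfbp7 and Igfbp6 and between Igfbp3 and Igf1. The MuSC and muscle tables were made separately, so levels across them are set side by side with no test.

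**Figure D1:**
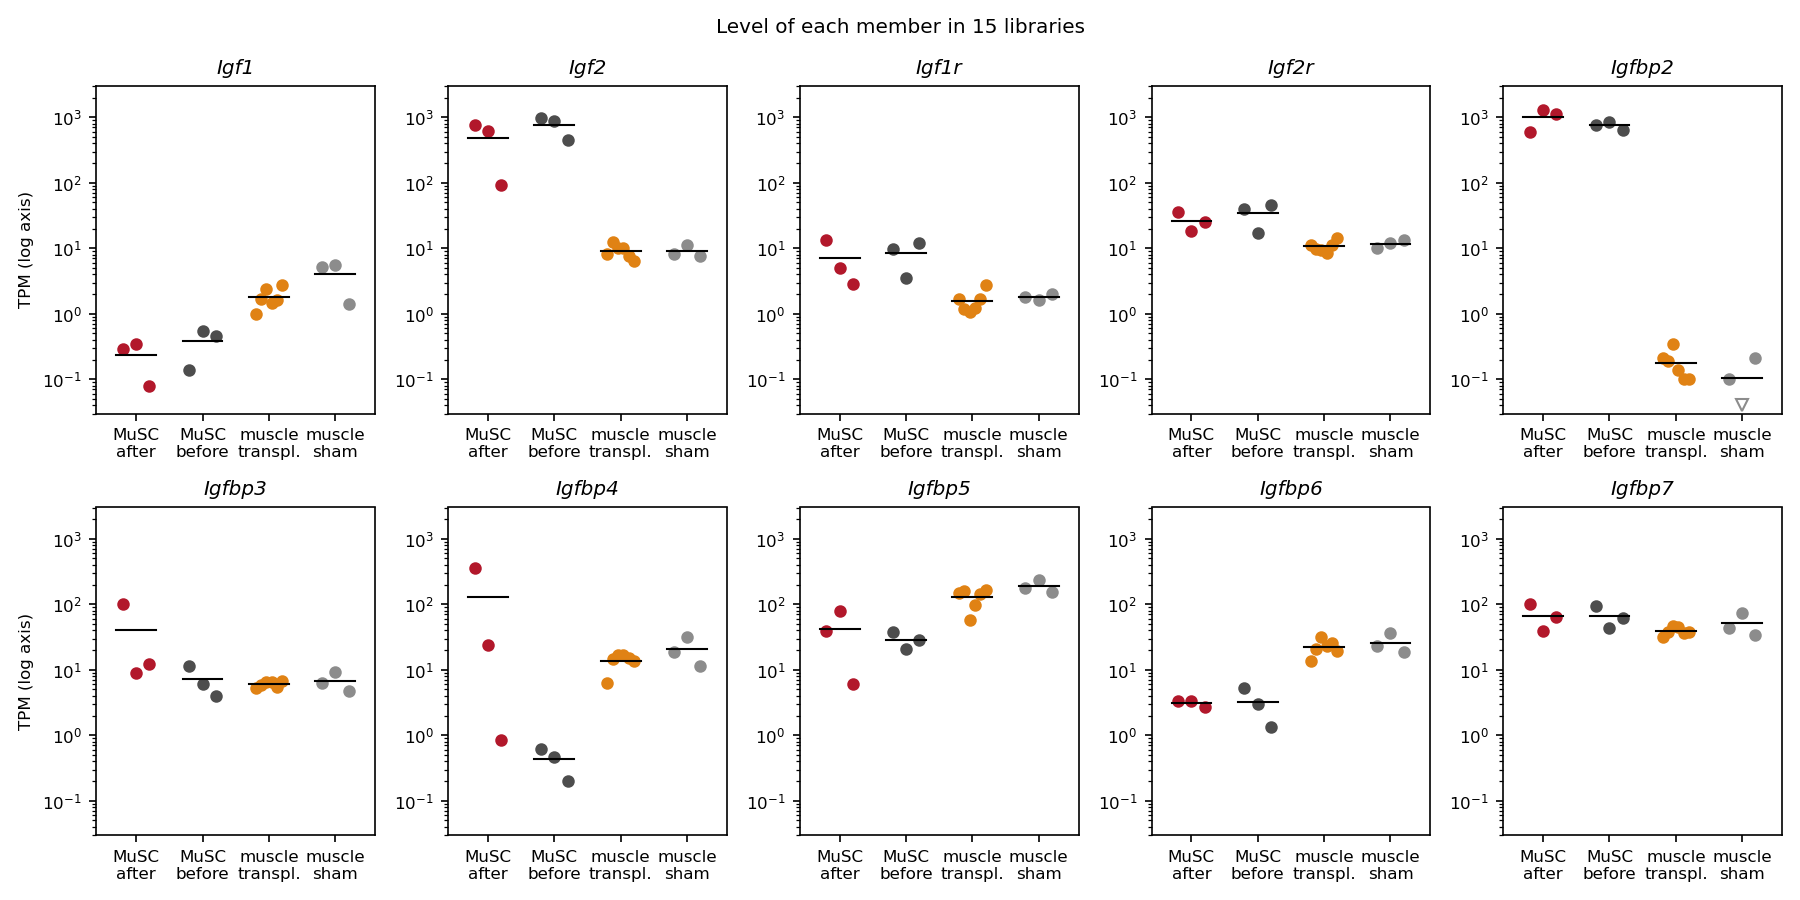
TPM (log axis) of the 10 genes in MuSCs after and before transplantation (3 libraries each) and in transplanted (6) and sham (3) muscle, with points for libraries, bars for group means and an open triangle for a value of 0. Igf2 and Igfbp2 stand highest in both MuSC groups, Igfbp5 stands highest in both muscle groups, and Igfbp4 spans 0.86 to 358.02 TPM in MuSCs after transplantation.

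Of the summed TPM of the 6 binding protein genes, Igfbp2 made up 77.4% ± 23.8 in MuSCs after transplantation and 87.7% ± 4.17 before it. Its share was 50% in after 5, 89.2% in after 6 and 92.9% in after 11. In after 5 Igfbp4 made up 29.9% and Igfbp3 8.29% of that sum, against at most 0.066% and 1.23% in the libraries before transplantation. In muscle Igfbp5 held 59.6% ± 13.5 of the sum in transplanted mice and 65.2% ± 4.21 in shams, and transplanted 6, at 36.1%, had the lowest share. The sum itself was 1277 ± 135 TPM after transplantation and 865 ± 104 TPM before it in MuSCs, with the lowest library after (1199) above the highest before (925). That separation is a description only, as a sum has no share over all genes beside it. Its sources differed between mice. In mouse 5 Igfbp2 was lower after (599.02 against 774.78 TPM) and Igfbp4 higher (358.02 against 0.61 TPM). In mice 6 and 11 Igfbp2 was higher after, and it also differed by library set (described with Igfbp2). In muscle the summed TPM of the 6 binding protein genes was 209 ± 32.7 in transplanted mice and 293 ± 82.8 in shams, and the groups overlapped.

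**Figure D2:**
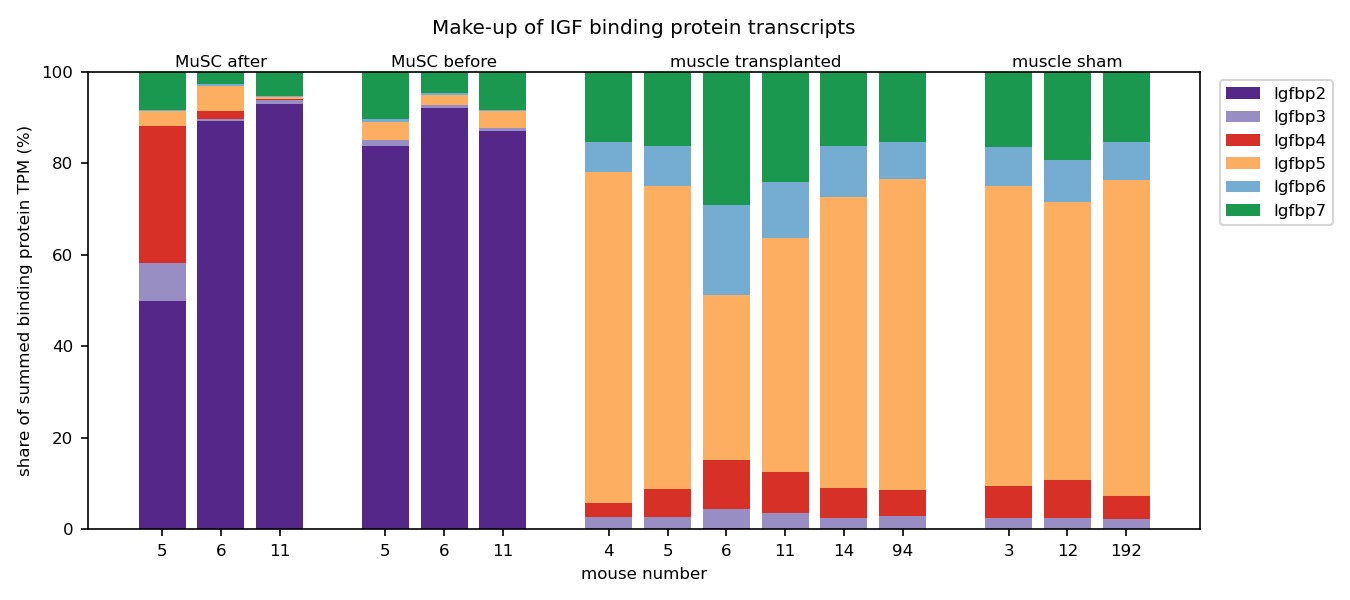
Share (%) of each binding protein gene in the summed binding protein TPM of each library, grouped as MuSCs after and before transplantation and transplanted and sham muscle, with mouse numbers on the horizontal axis. Igfbp2 holds 50% to 92.9% in MuSC libraries after transplantation and Igfbp5 36.1% to 72.2% in transplanted muscle.

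The first comparison asked how endogenous MuSCs differed after transplantation from those before it. Of the 10 genes, Igfbp4 and Igfbp3 had higher values in every library after transplantation than in any library before it on the CPM scale, 2 of 10 where 6.33% of the 13512 genes tested had groups that did not overlap in either direction (3.35% higher after). None of the 10 passed edgeR's quasi-likelihood test (p adjusted over all genes tested 0.873 to 0.929, threshold 0.05), and it called 0 of the 13512 genes (0%). At an unadjusted p under 0.05 the same test had 2 of the 10 (Igfbp3 and Igfbp4, both higher after), beside 2.26% of all genes in either direction and 1.55% higher. All 10 genes had enough counts to be tested. The median log2 difference was 0.19 over the 10 (6 above and 4 below 0) and 0.73 over the 6 binding proteins (6 above 0), beside 0.02 over all genes tested, of which 51.4% lay above 0. Fewer cells of a type and less RNA per cell cannot be told apart in bulk samples such as these.

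The second comparison set transplanted against sham muscle. Of the 9 genes tested (Igfbp2 had too few counts), 0 passed edgeR's test, which called 0 of 14375 genes (0%), and all 10 genes overlapped between the groups, where 2.11% of genes tested did not. Igf1, Igfbp4 and Igfbp7 had an unadjusted p under 0.05, 3 of 9 genes and all of them lower in transplanted muscle, beside 7.08% of all genes in either direction and 4.08% lower. The median log2 difference was -0.12 over the 9 genes (2 above and 7 below 0) and -0.26 over the 5 binding proteins tested (5 below 0), beside -0.00 over all genes, of which 50.1% lay below 0. DESeq2 called 6 genes (0.0417%) and the 2-sham and 1-sham tables alone (described with Igf1) 0.00712% and 0.276% of genes, with none of the 9 among them.

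**Figure D3:**
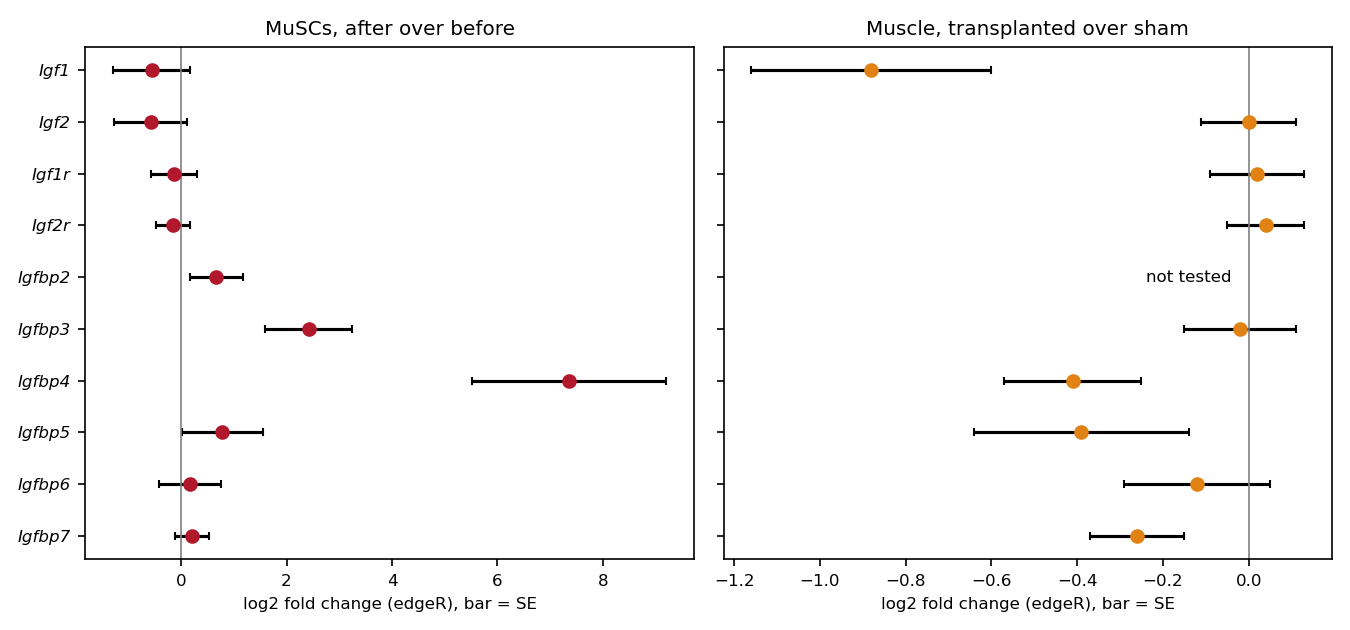
Log2 fold change of each gene by edgeR, MuSCs after over before transplantation on the left and transplanted over sham muscle on the right, with bars for the standard error and a separate horizontal scale for each panel. Igfbp4 stands at 7.36 in MuSCs, and Igf1 has the lowest value in muscle, -0.88.

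The ligand Igf1 (ENSMUSG00000020053.19, chromosome 10) was close to the detection limit in MuSCs. It had estimated counts of 14 in after 5, 7 in after 6 and 2 in after 11, against 16 in before 5, 12 in before 6 and 7 in before 11, and the groups overlapped (log2 difference -0.56 ± 0.73, SE). In muscle it was readily detected. Transplanted libraries had 5.12 to 9.44 CPM (median 8.1), against 15.9 in sham 3, 18.7 in sham 12 and 6.73 in sham 192. Thus 2 of the 3 shams lay above every transplanted library, while sham 192 lay within the transplanted range. The log2 difference was -0.88 ± 0.28 (edgeR, adjusted p = 0.686).

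Within the deposited tables, the Igf1 difference was -0.56 ± 0.37 in the table with shams 3 and 192 (called the 2-sham table here, with transplanted 4, 14 and 94) and -1.33 ± 0.26 in the 1-sham table (sham 12 with transplanted 5, 6 and 11). The 2-sham value minus the 1-sham value was 0.78 ± 0.56 (edgeR interaction, adjusted p = 0.757). Without sham 192 the value was -1.19, and without sham 12 it was -0.56. The effective length implied by the deposited counts and FPKM was 3395 to 6343 bases in transplanted and 3482 to 5710 bases in sham muscle, so the mix of transcripts assigned to Igf1 varied between libraries.

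Igf2 (ENSMUSG00000048583.17, chromosome 7) is an imprinted gene expressed from the paternal allele in mouse. By TPM it ranked 156 to 285 among all genes in the MuSC libraries before transplantation. After it the rank was 164 in after 5, 246 in after 6 and 1294 in after 11. It had 1247 CPM in after 5, 1450 in after 6 and 222 in after 11, against 1582 in before 5, 2020 in before 6 and 769 in before 11. Each of the 3 mice had less after than before, and mouse 11 was the lowest in both groups, with the widest difference (log2 -1.79). After 11 is in set B and before 11 in set A, so time and set cannot be told apart within mouse 11. The groups overlapped, and the log2 difference was -0.58 ± 0.69 (edgeR, adjusted p = 0.873). Without after 11 it was -0.11. That library also had the lowest share of mitochondrial counts in MuSCs, 1.2% against 4.44% to 6.28% in the others, and the lowest sum of the mature myofibre list, 910 TPM. The part of these in the Igf2 value was not tested.

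In muscle Igf2 had 12.5 to 22.5 CPM in transplanted mice (median 17.4), against 16.6 in sham 3, 18.5 in sham 12 and 14.2 in sham 192. The shams lay inside the transplanted range, and the log2 difference was -0.00 ± 0.11. Igf2 overlaps Igf2os on the other strand and Gm49394 on its own, which reached at most 0.45 and 0.16 TPM in any MuSC library.

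The receptor Igf1r (ENSMUSG00000005533.11, chromosome 7) had 94.1 CPM in after 5, 57.9 in after 6 and 35.9 in after 11, against 74.4 in before 5, 41.3 in before 6 and 90 in before 11. The groups overlapped (-0.13 ± 0.44), while all set A libraries lay above all set B libraries. Such a separation of the sets was seen in 56.8% of all genes tested, in either direction. With the set as a term in the model the difference was 0.19. In muscle it had 11.1 to 17 CPM in transplanted mice (median 14.8), against 14.6, 13.5 and 15.6 in shams 3, 12 and 192, and the log2 difference was 0.02 ± 0.11.

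Igf2r (ENSMUSG00000023830.15, chromosome 17), the lysosomal sorting receptor, had 222 CPM in after 5, 175 in after 6 and 243 in after 11, against 252 in before 5, 157 in before 6 and 298 in before 11. Those ranges overlapped, with a log2 difference of -0.15 ± 0.32. In muscle it had 75.6 to 98.7 CPM in transplanted mice (median 81.7), against 77.6, 78.5 and 92.9 in shams 3, 12 and 192 (0.04 ± 0.09). Both receptors thus overlapped between the groups in MuSCs and in muscle, with standard errors wider than the differences. Airn, the antisense transcript from within Igf2r, had 1.9 to 6.32 TPM in MuSCs after and 3.99 to 8.82 TPM before transplantation, and 7.7 to 11.6 TPM in transplanted and 8.21 to 12.6 TPM in sham muscle. The labels do not say whether counting used strand, so reads of Airn and Igf2r in the shared stretch may be assigned to either.

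Igfbp2 (ENSMUSG00000039323.19), the main binding protein transcript of the MuSCs, had 441 CPM in after 5, 1465 in after 6 and 1319 in after 11, against 579 in before 5, 948 in before 6 and 497 in before 11. It was higher after in mice 6 and 11 and lower after in mouse 5, and the overall log2 difference was 0.67 ± 0.51 (edgeR, adjusted p = 0.873). All set B libraries had more Igfbp2 than all set A libraries, so the set moves with the value as well. The sets did not overlap in 2 of the 10 genes (Igf1r and Igfbp2), beside 56.8% of all genes tested. Within set A the difference was -0.27 and within set B it was 0.55. In muscle it was almost undetected, with 1 to 6 counts in transplanted libraries and 1, 0 and 2 counts in shams 3, 12 and 192. A count of 0 in sham 12 allows up to 0.159 CPM (3 counts), counting error only.

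Igfbp3 (ENSMUSG00000020427.12, chromosome 11), which forms a circulating complex with the ligands and the acid-labile subunit, had 154 CPM in after 5, 21.1 in after 6 and 29.7 in after 11, against 17.8 in before 5, 14.1 in before 6 and 6.42 in before 11. Each mouse had more after than before and the CPM groups did not overlap, but the gap between after 6 and before 5 was small. The pair of mouse 11 also differs in library set. On the TPM scale that order turned, with 8.93 TPM in after 6 and 11.37 TPM in before 5. The log2 difference was 2.42 ± 0.82 (edgeR, adjusted p = 0.873), and without after 5 it was 0.98. In muscle Igfbp3 had 9.91 to 14.6 CPM in transplanted mice (median 12), against 11.9, 14.7 and 8.33 in shams 3, 12 and 192, with a log2 difference of -0.02 ± 0.13.

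Igfbp4 (ENSMUSG00000017493.13), a binding protein that inhibits IGF action until PAPP-A cleaves it, had the widest spread of the family. It had 465 CPM in after 5, 54.9 in after 6 and 2.28 in after 11, against 0.85 in before 5, 1.81 in before 6 and 0.543 in before 11. The 3 libraries before transplantation held 20.04, 28.68 and 11.01 estimated counts for mice 5, 6 and 11, so the level before transplantation rests on few counts. Every library after lay above every library before, but after 11, with 39.21 estimated counts, lay just above before 6. Within mice the log2 difference was 9.10 in mouse 5, 4.92 in mouse 6 and 2.07 in mouse 11, where the pair also differs in library set.

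The fitted log2 difference of Igfbp4 was 7.36 ± 1.84 (edgeR, adjusted p = 0.873). DESeq2 gave 7.35 ± 1.22 with an adjusted p of 7.4e-06, one of its 16 calls (0.118% of genes). With the mouse as a block edgeR gave 5.35 ± 1.53 (adjusted p = 0.901). Without after 5 the difference was 4.75, and with only after 6 kept as the library after it was 5.72 (adjusted p = 0.0407, where 0.0272% of genes were called). In set A alone it was 9.37 ± 0.34 (adjusted p = 0.00325, where 0.292% were called). Over the 14 alternatives it ranged from 3.97 to 9.37 and the adjusted p from 7.4e-06 to 1. For Igfbp4 the implied effective length was 1817 to 2395 bases after transplantation, against 1924 bases in before 5, 3570 in before 6 and 3686 in before 11.

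**Figure D4:**
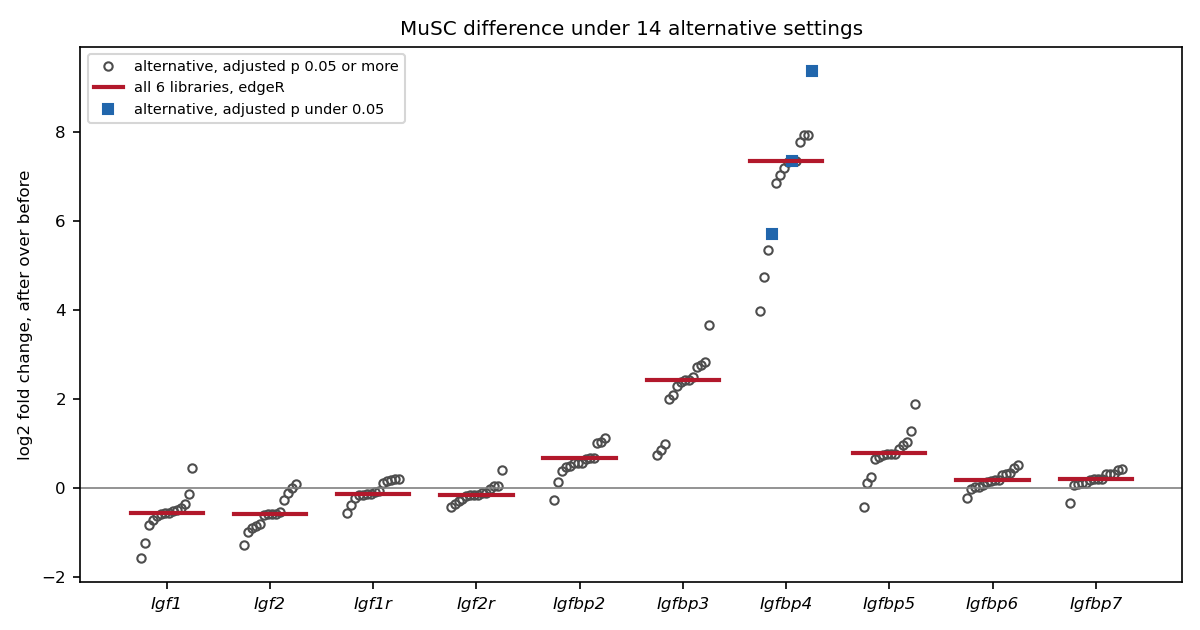
Log2 difference of each gene in MuSCs, after over before transplantation, with the fit of all 6 libraries as a red bar and 14 alternative settings as points, blue squares where the adjusted p is under 0.05. Igfbp4 lies between 3.97 and 9.37 in all of them, and Igfbp3 between 0.74 and 3.67.

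The library with the highest Igfbp4 and Igfbp3, after 5, also had the highest sum of the fibroadipogenic marker list in MuSCs, mostly from Smoc2 and Ly6a. Its 11 genes summed to 237 TPM in after 5, 46.3 in after 6 and 50.4 in after 11, against 44.6 to 88.4 TPM before transplantation. Smoc2, a matricellular protein gene, had 131.46 TPM in after 5 and 0.92 to 10.63 TPM in the other MuSC libraries, and Ly6a, which encodes SCA-1, had 54.24 TPM against 3.54 to 6.22 TPM. Other listed genes went the other way. Col3a1 had 49.96 TPM in after 5 against 70.5 in before 5, Mfap5 0.11 against 5.48 and Cd34 0.13 against 0.37. Dpt and Pi16 were at 0 in after 5, against 0.2 and 0.03 TPM in before 5. The defining markers Dcn, Lum and Dpp4 were at 0 in all 6 MuSC libraries, and Pdgfra was at 0.98 TPM in after 5. The part of these transcripts in the Igfbp4 and Igfbp3 values was not tested.

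In muscle the Igfbp4 values ran the other way. Transplanted libraries had 16 to 40.9 CPM (median 32.6), against 34.1 in sham 3, 52.1 in sham 12 and 25.5 in sham 192. Sham 12 lay above every transplanted library, and shams 3 and 192 lay within their range (log2 difference -0.41 ± 0.16, edgeR, adjusted p = 0.686). The difference was -0.37 in the 2-sham table and -0.46 in the 1-sham table.

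Igfbp5 (ENSMUSG00000026185.9), a binding protein of the extracellular matrix and the main one in muscle, had 163 CPM in after 5, 491 in after 6 and 38.8 in after 11, against 155 in before 5, 128 in before 6 and 122 in before 11. The libraries after transplantation thus lay above and below the narrow range before it. The log2 difference was 0.78 ± 0.77, and without after 6 it was -0.42. In muscle it had 306 to 877 CPM in transplanted mice (median 734), against 895 in sham 3, 1003 in sham 12 and 730 in sham 192. Transplanted 6 was far below the rest of its group, sham 192 lay within the transplanted range, and the log2 difference was -0.39 ± 0.25 (edgeR, adjusted p = 0.761). It was -0.13 in the 2-sham table and -0.78 in the 1-sham table, and the 2-sham value minus the 1-sham value was 0.66 ± 0.51 (edgeR interaction, adjusted p = 0.774).

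Igfbp6 (ENSMUSG00000023046.7, chromosome 15), which prefers IGF2 over IGF1, was low in MuSCs. It had 2.05 CPM in after 5, 3.14 in after 6 and 2.63 in after 11, against 3.31 in before 5, 2.75 in before 6 and 0.889 in before 11, and the groups overlapped (0.17 ± 0.58). In muscle transplanted libraries had 10.3 to 24.9 CPM (median 17.5), against 16.7, 22.9 and 12.7 in shams 3, 12 and 192, with a log2 difference of -0.12 ± 0.17.

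Igfbp7 (ENSMUSG00000036256.14, chromosome 5), a secreted protein known in vessel walls, had 62 CPM in after 5, 36.9 in after 6 and 63.6 in after 11, against 60.3 in before 5 and 40.2 in both before 6 and before 11 (0.21 ± 0.32). In muscle it had 23.9 to 39.8 CPM in transplanted mice (median 28.9), against 32.4 in sham 3, 47.4 in sham 12 and 23.4 in sham 192. Sham 12 was the highest of the 9 libraries and sham 192 the lowest, and the log2 difference was -0.26 ± 0.11 (edgeR, adjusted p = 0.7). Igfbp7 overlaps Polr2b, which lies on the other strand and had 12.8 to 41.5 TPM in MuSCs after and 18.1 to 40.4 TPM before transplantation, so its counts are uncertain in the shared stretch.

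Sham 12 had the highest values of all 9 muscle libraries for Igf1, Igfbp3, Igfbp4, Igfbp5 and Igfbp7, and it was also highest for fat and connective tissue markers. The 8 adipocyte markers summed to 157 to 631 TPM in transplanted muscle, against 567 in sham 3, 1452 in sham 12 and 213 in sham 192. The 11 fibroadipogenic markers summed to 296 to 387 TPM in transplanted muscle, against 371, 614 and 384 TPM in shams 3, 12 and 192. In the edgeR fit 8 of 8 adipocyte genes and 9 of 11 fibroadipogenic genes had a log2 difference below 0 (medians -1.25 and -0.27). So had 8 of 8 macrophage genes (-0.24) and 6 of 6 tenocyte genes tested (-0.51), while 10 of 10 mature myofibre genes lay above 0 (0.19). The remaining lists were mixed. Endothelial genes had 5 above and 3 below 0 (0.03), and pericyte and smooth muscle genes 2 above and 5 below (-0.01). Schwann genes had 1 above and 3 below (-0.08), and MuSC genes 3 above and 5 below (-0.20). No gene of these lists was called. At an unadjusted p under 0.05 (edgeR) there were 6 of 8 adipocyte, 4 of 11 fibroadipogenic and 2 of 6 tenocyte genes, beside 7.08% of all genes. The MuSC list had 1 of 8 genes tested, and the other lists had 0. The part of these markers in the muscle values of the IGF genes was not tested.

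**Figure D5:**
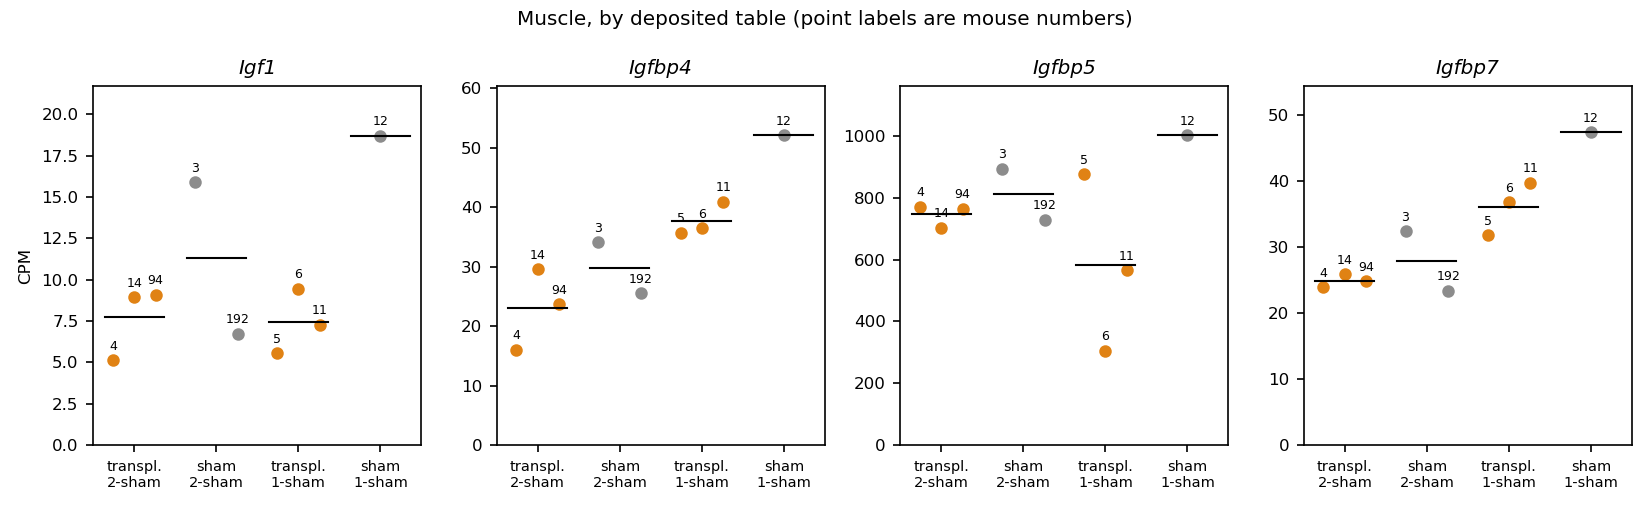
CPM of Igf1, Igfbp4, Igfbp5 and Igfbp7 in transplanted and sham muscle of the 2-sham table and of the 1-sham table, with points labelled by mouse number and bars for means. Sham 12 is the highest library in all 4 genes and the only sham of its table, and sham 192 lies near or within the transplanted range.

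Among the other genes of the pathway, 57 were listed by role, 48 of which were tested in each comparison, and edgeR called 0 in either. In MuSCs 1 of the 48 had an unadjusted p under 0.05, beside 2.26% of all genes tested. This was Grb14, an adaptor that inhibits insulin receptor signalling, at 9.21 ± 8.11 CPM after and 2.58 ± 1.02 CPM before transplantation (log2 difference 1.84 ± 0.69, adjusted p = 0.873). Its groups did not overlap, as in 6.33% of all genes. The median log2 difference over the 48 was -0.05. Among the genes that act on Igf2 mRNA, Igf2bp2 averaged 91.7 ± 33.5 CPM after and 118 ± 6.66 CPM before (-0.37 ± 0.34). Its highest library after and its lowest before both had 111 CPM, and on the TPM scale the groups overlapped, at 13.9 to 47.9 TPM after and 31.2 to 51.6 TPM before. Igf2bp1 had 1.05 to 13.7 CPM after and 1.33 to 2.19 CPM before. By list, 5 adaptor genes lay above and 3 below 0 (median 0.41), and 4 growth hormone axis genes above and 2 below (0.15). Of the genes acting on Igf2 mRNA 2 lay above and 2 below (0.09), and of the FoxO factors 1 above and 3 below (-0.10). The PI3K, AKT and mTOR list had 6 above and 13 below (-0.24) and the proteases and their inhibitors 1 above and 5 below (-0.32), where 51.4% of all genes lay above 0. Insr, the only tested gene of the remaining list, was at -0.24.

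In muscle 1 gene of the 48 had an unadjusted p under 0.05, beside 7.08% of all genes tested. It was Socs2, an inhibitor of growth hormone receptor signalling that growth hormone itself induces. Its mean was 26.7 ± 6.73 CPM in transplanted mice and 17.5 ± 3.35 CPM in shams (log2 difference 0.67 ± 0.19, adjusted p = 0.686), and the groups overlapped. Ghr, the growth hormone receptor, was at 192 ± 45.3 CPM in transplanted mice and 220 ± 23.2 CPM in shams (-0.16 ± 0.11). H19, the noncoding RNA imprinted beside Igf2, stood at 1195 ± 603 CPM in transplanted mice against 773 ± 259 CPM in shams (0.33 ± 0.38). The insulin receptor gene Insr had 86 ± 17.8 CPM in transplanted mice, against 93.9 ± 13.7 CPM in shams (-0.07 ± 0.12). Igfbp1, another binding protein of the family and mainly a liver gene, was listed at 0 TPM in all 15 libraries, and Igfals, the acid-labile subunit, was at 0 in all 6 MuSC libraries. Over these 48 genes the median log2 difference was -0.00.

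The genes whose pattern was most like that of each member over the 9 muscle libraries were found by Pearson's r of log2(TPM + 1) centred within each table, among 11722 genes, as a description with no test. Libraries of a table share their processing, and the 9 libraries also differ in fat and connective tissue transcripts. Closest to Igf1 were Gm5575 and Atp2b4 (r = 0.98 each), and closest to Igfbp4 were S100a11 and Ntn1 (0.98 each). For Igfbp3 they were Adamts1 and Tspan31 (0.98 each), for Igfbp7 Ankrd49 (0.99) and Agmo (0.98), and for Igfbp6 Myl12b (0.99) and Rhoj (0.96). Igfbp5 had Golga7b and Ubxn8 (0.95 each), and Igf2 had Fahd1 and Pdss1 (0.91 each). The receptors had Erc1 (0.99) and Fam118a (0.98) for Igf1r and Pkia and Stat5b (0.99 each) for Igf2r. Among the members themselves r was highest between Igf1 and Igfbp7 (0.89), Igfbp4 and Igfbp7 (0.88) and Igfbp4 and Igfbp6 (0.88), and Igf2 lay lowest with Igf1r (-0.46).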

How the data were processed

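The authors deposited 1 table of MuSC libraries and 2 of muscle, each with estimated counts, TPM and FPKM per gene, per the file headers. Per the submitters' processing notes the builds were GRCm38 and mm10; no aligner, quantifier or strand setting is named in the sources used here. Of the deposited estimated counts, 7.99% were not whole and were rounded. The deposited FPKM served only to derive an effective length per gene and library. Another 3 columns matched no sample's labels and were not used.

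Counts were tested with edgeR 4.0.16 (quasi-likelihood F-test, filterByExpr with a minimum count of 10, TMM, Benjamini-Hochberg over all genes tested, 2-sided, threshold 0.05) in R 4.3.3. The MuSC model had no covariate, and the muscle model had the table as a term. CPM is scaled by TMM library size. The SE of edgeR is the log2 fold change over the root of F, and DESeq2 gives its own. DESeq2 1.42.0 and other settings were alternatives. The edgeR fits were tested on simulated data with a spread set in advance, not measured in these libraries. For well-counted genes in the MuSC design, edgeR recovered 9.18% of log2 differences of 1 and 95.1% of those of 2. In the muscle design it recovered 97.9% and 100%. Depth was 17.09 to 22.98 M counts (M for mega). The SDs and SEs include variation between libraries, and only the limit given for a count of 0 covers counting error alone.

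The members and lists were chosen with earlier results of these data known. Named were all members, the 2 pathway genes per role list with the smallest p, of which some are given here, and the 2 genes most like each member. Same-numbered MuSC libraries are taken as 1 mouse because the labels call the cells autologous. Deviations from the group means correlated at 0.30 (mouse 5), 0.36 (6) and -0.40 (11) over 13512 genes, and from -0.68 to 0.55 between different mice. Every pair within a library set was positive (0.30 to 0.55) and every pair across sets negative (-0.68 to -0.16). These correlations thus ran with the set and cannot show the pairing by mouse. Libraries of a group are taken as separate mice from their titles.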

Additional observations from a re-analysis of the deposited data

How the results depend on the processing

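With the mouse as a replicate block, edgeR called 0 genes in MuSCs, as without it, and none of the 10 members. The count of genes called in MuSCs was 16 with DESeq2, 43 in library set A alone (1 library after) and 4 with after 5 and after 11 both left out, against 0; a lone library is assumed to vary like the others. Igfbp4 was called in these 3 settings (7.35, 9.37 and 5.72) and no other member in any. In muscle the count was 6 with DESeq2, 12 with no filter on low counts, 1 in the 2-sham table and 41 in the 1-sham table, and 0 to 4 leaving out 1 library each, the highest without sham 192; no member was called in any.

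Of 140 member values in MuSCs over 14 settings, 16 changed sign, in 8 of 10 members, all of them values not called. In set A alone these were Igf1 at 0.44, Igf2 at 0.09, Igf1r at 0.21, Igfbp2 at -0.27 and Igfbp6 at -0.03, in set B alone Igf1r at 0.18 and Igf2r at 0.41, and with the set as a term Igf1r at 0.19 and Igf2r at 0.05. With after 5 and after 11 left out they were Igf2 at 0.00 and Igfbp7 at -0.33. Leaving out 1 library gave -0.57 to 0.15 for Igf1r, -0.36 to 0.05 for Igf2r, -0.42 to 1.29 for Igfbp5 and -0.23 to 0.51 for Igfbp6. Of 135 member values in muscle over 15 settings, 19 changed sign, in 4 of 9 members. Igf2 was at 0.00 with no filter, 0.10 with no table term and 0.18 in the 1-sham table. Igf1r was at -0.02 with no table term and -0.12 in the 1-sham table, Igf2r at -0.01 in the 1-sham table, and Igfbp3 at 0.04 with no table term and 0.06 in the 2-sham table. Leaving out 1 library gave -0.11 to 0.09 for Igf2, -0.03 to 0.11 for Igf1r, -0.03 to 0.10 for Igf2r and -0.15 to 0.09 for Igfbp3. The causes were not tested. Few counts limit Igf1 and Igfbp4 before transplantation in MuSCs and Igfbp2 in muscle. With CPM in place of TPM, the log2 ratio of means changed sign for Igfbp6 in MuSCs (0.17 with CPM, -0.05 with TPM) and in muscle for Igf2r (0.01, -0.14) and Igfbp3 (0.04, -0.15), and for muscle it was -0.29 with CPM and -0.58 with TPM for Igfbp4 and -0.17 and -0.38 for Igfbp7. Each member's shift was under the pooled SD (1 SD) of log2 TPM within groups.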
